A study of Mus musculus with 6 samples.

Results

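Cytochrome P450 enzymes of families 1 to 3 carry out much of the oxidation of drugs, pollutants, steroids and fatty acids in liver. The mouse genes of these families were compared between livers that lacked AEG-1 in hepatocytes and control livers. Members were the protein-coding genes whose symbol is Cyp followed by 1, 2 or 3, a single letter and a number, with at least 10 counts summed over the 6 library columns. By this rule 55 of the 46983 rows of the count table were members, out of 58 protein-coding rows with such a symbol. The AEG-1 knockout group (AEG-1DHEP) carried a conditional deletion of AEG-1, the product of Mtdh, in hepatocytes, and the control group was AEG-1fl/fl, which the sample titles call WT. All mice were 12 weeks old, on a C57BL/6 background, chow-fed and untreated, and RNA came from whole liver. Neither the driver of the deletion nor the sex of the mice is given in the sources used here. Each group has 3 libraries by the labels, but control columns 1 and 2 held the same count in every row. They thus differed by less than sampling noise and entered as 1 sample, leaving 3 knockout libraries and 2 distinct control libraries, called control replicates 1 and 3.

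P450 enzymes are haem proteins of the endoplasmic reticulum that receive electrons from the reductase Por and, in some reactions, from cytochrome b5. Family 1 is known as a target of the aryl hydrocarbon receptor AhR, and many genes of the Cyp2b, Cyp2c and Cyp3a subfamilies are induced through the receptors CAR (Nr1i3) and PXR (Nr1i2). In liver most of them are transcribed in hepatocytes, many near the central vein, and several mouse members differ between the sexes under growth hormone and STAT5. Most lie in clusters of similar neighbours.

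Library totals were 29557477 to 33685670 counts in the knockout group and 30819997 to 30965664 in the control group. Mtdh had 2.9, 2.23 and 2.37 CPM in knockout and 48 and 54.6 CPM in control livers, so each library went with its label (CPM, counts scaled to library size, with sizes adjusted by the trimmed mean of M values). The 4 hepatocyte markers (Alb, Ttr, Apoa1, Tat) summed to 69807.7, 71184.6 and 79989.6 CPM in knockout and 91159.1 and 61792.5 CPM in control livers. All 4 pancreas markers and 2 of 3 kidney markers were at 0 in every library, and skeletal muscle markers summed to 15.2 CPM in knockout replicate 1 and to at most 0.0937 CPM in the others. The 4 intestine markers (Vil1, Fabp2, Lgals4, Muc2) summed to 144.6, 150.9 and 90.6 CPM in knockout and 65.5 and 80.7 CPM in control livers. The sum was thus higher in every knockout library. Only 2 of the 4 had enough reads to be tested, and both had a log2 fold change above 0. The sum therefore does not describe each of the 4 genes. The 5 sinusoidal endothelial markers summed to 166.4, 126.6 and 117.2 CPM in knockout and 154.7 and 193.0 CPM in control livers, with 0 of 5 log2 fold changes above 0, and the 3 erythroid markers to 311.6, 350.2 and 280.9 CPM in knockout and 412.5 and 341.8 CPM in control livers, with 0 of 3 above 0. The endothelial and erythroid sums overlapped between the groups, as did those of Kupffer cell, cholangiocyte and adipocyte markers. The part of these cell types in the results was not tested.

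The members spanned a wide range of levels, and 1 gene stood above the rest. To compare genes, CPM was divided by the summed exon length in kilobases. Cyp2e1, which oxidises ethanol, paracetamol and other small molecules, averaged 3699.2 CPM per kb over the 5 libraries, and the next gene, Cyp2d9, averaged 842.0 CPM per kb. Of the 55 members, 21 averaged at least 100 CPM per kb, 32 at least 10, 41 at least 1, and 14 less than 1. The 15 most abundant members held 86.6, 86.7 and 87.2% of the summed length-scaled level in the knockout libraries and 85.6 and 85.4% in the control libraries. Counts of all members made up 2.07 ± 0.16% in knockout and 1.84 ± 0.191% in control livers (SD, n = 3 and n = 2).

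**Figure D1:**
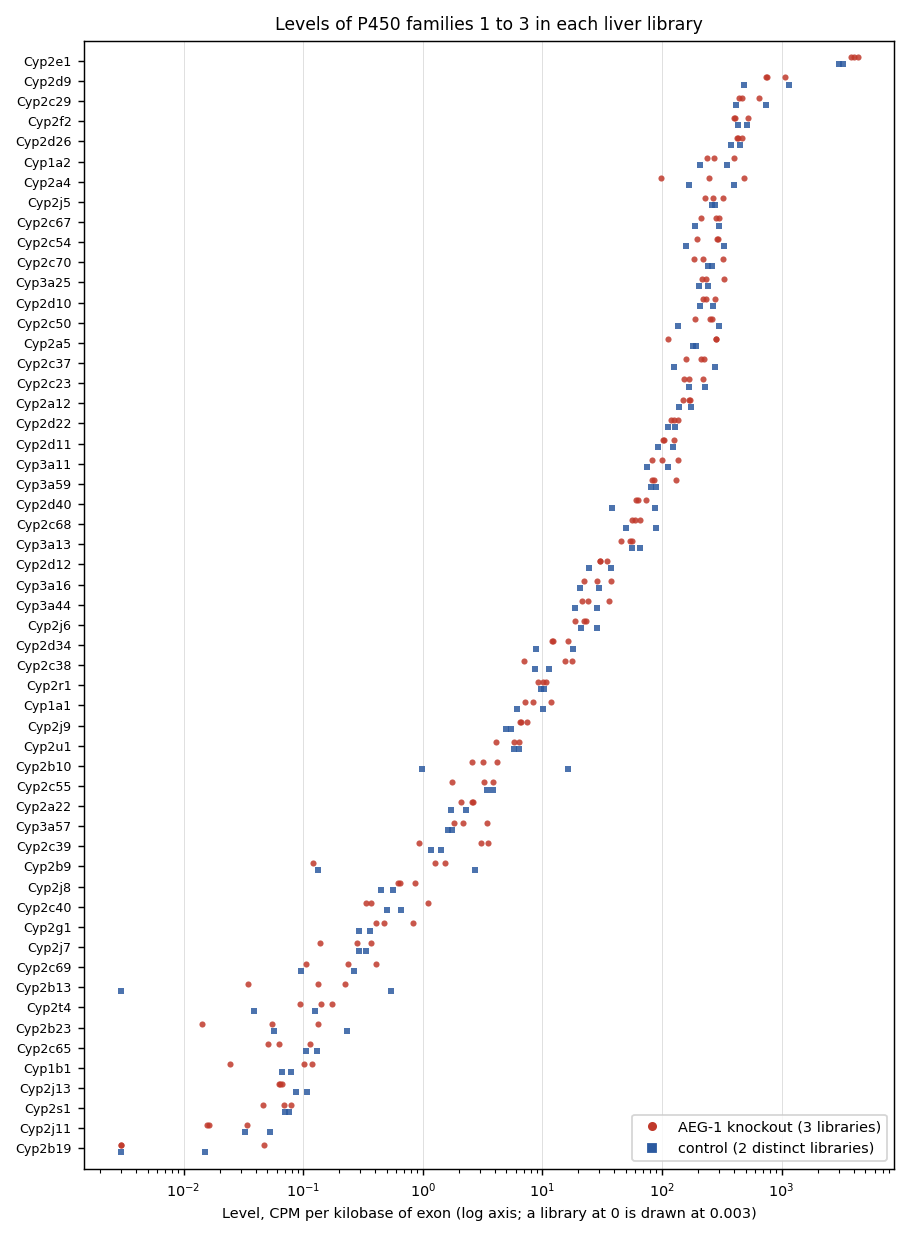
Level of each of the 55 members in each library, in CPM per kilobase of exon on a log axis, with 3 knockout libraries (circles) and 2 distinct control libraries (squares). Cyp2e1 lies at the top with its knockout values right of its control values, while for most members the symbols of both groups mix, and the squares of Cyp2b10 and Cyp2b13 lie on either side of their circles.

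The minimum of 10 counts decided membership for a few genes with almost no reads. Just inside lay Cyp2b19 with 10 counts over the 6 columns and Cyp2j11 with 11. Just outside lay Cyp2j12 with 8, Cyp2c66 with 1 and Cyp2w1 with 0. A count of 0 allows a level of up to 0.0905 to 0.102 CPM, the worth of 3 counts in these libraries. The low-count filter of the gene test kept 50 of the 55 members and removed Cyp2b19, Cyp2b23, Cyp2c65, Cyp2j11 and Cyp2t4, none of which had over 15 counts in any library.

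By subfamily, the share of Cyp2e1 in the P450 transcripts stood somewhat higher in the knockout libraries. Cyp2e1 made up 39.7 ± 1.68% in knockout and 34.4 ± 2.97% in control livers of the summed length-scaled level (SD, n = 3 and n = 2, here and below). The 14 Cyp2c genes made up 19.3 ± 0.265% in knockout and 21.8 ± 1.56% in control livers. The 8 Cyp2d genes made up 18.4 ± 1.67% in knockout and 19.3 ± 4.24% in control livers. The 4 Cyp2a genes made up 6.42 ± 2.53% in knockout and 7.05 ± 2.44% in control livers and the 7 Cyp3a genes 5.63 ± 1.23% in knockout and 5.64 ± 0.672% in control livers, so that for Cyp2d, Cyp2a and Cyp3a the groups differed by less than their spread. These shares are descriptions with no test, and a larger share of one subfamily lowers those of the rest.

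**Figure D2:**
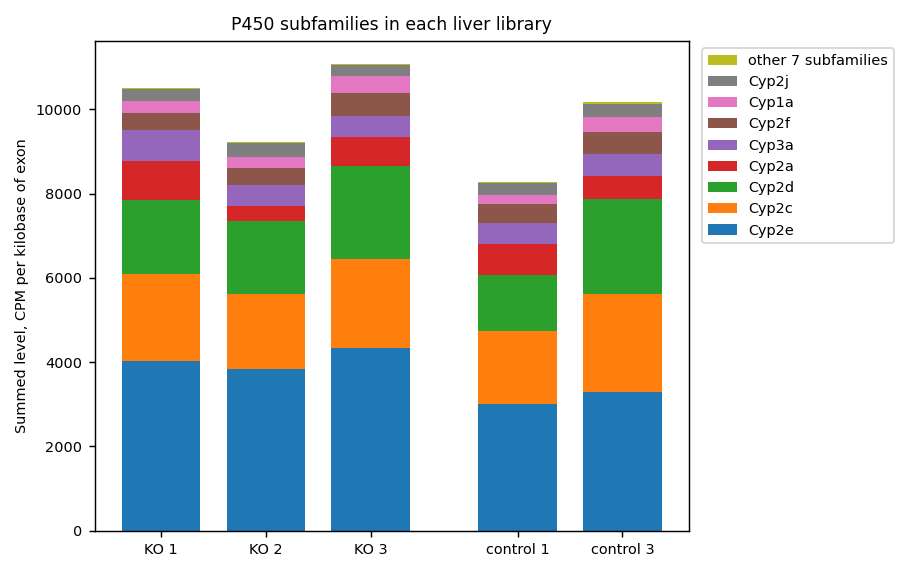
Summed level of each subfamily in each library, in CPM per kilobase of exon, as stacked bars for the 3 knockout libraries and the 2 distinct control libraries. Cyp2e is the lowest and tallest block in every bar, and control replicate 1 has the shortest bar.

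No member passed the test between the groups. With edgeR's quasi-likelihood test and Benjamini-Hochberg adjustment over 16441 genes, 0 of 50 tested members were higher and 0 lower in knockout livers, each with an adjusted p of 1. Over all genes, 0% were called higher and 0.00608% (Mtdh alone) lower. DESeq2 called 0 members, against 0.0365% of all genes higher and 0.0791% lower. In limma-voom 0 members were called as well, against 0% and 0.00608%. At an unadjusted edgeR p under 0.05, 1 member was higher and 0 were lower, against 1.63% and 1.8% of all genes. The log2 fold change (knockout over control) was above 0 for 33 of 50 members (66%) and for 52.1% of all genes, with medians of 0.06 and 0.01. That balance rested on single libraries, since 18 members were above 0 when control replicate 1 was left out, 38 when control replicate 3 was and 24 when knockout replicate 3 was.

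For 33 of the 50 members, and for 12295 of all 16441 genes, the 95% interval was contained between -1 and 1 on the log2 scale. A change of 2-fold or more thus lay outside it for these 33 members. The median half-width was 0.69 over the members and 0.46 over all genes, so the members were on the whole less precisely measured. Among the abundant genes the interval was -0.26 to 0.41 for Cyp2d22, -0.26 to 0.46 for Cyp2d26 and -0.34 to 0.43 for Cyp2a12.

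**Figure D3:**
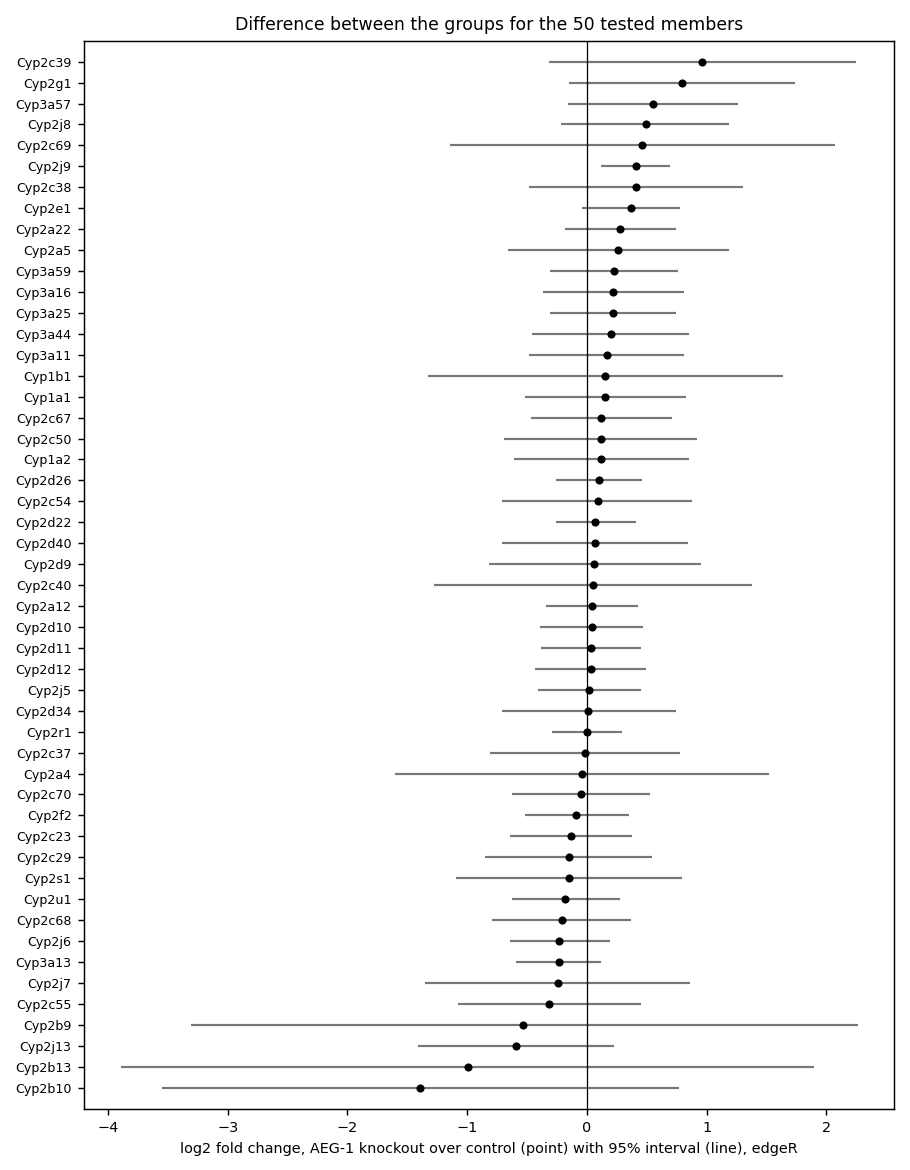
log2 fold change of the 50 tested members (point) with its 95% interval (line), knockout over control, from edgeR. The interval of Cyp2j9 (0.12 to 0.69) lies wholly above 0 and all others cross 0, with the widest for Cyp2b13, Cyp2b9 and Cyp2b10.

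The groups did not overlap for 7 members. Higher in all knockout libraries were Cyp2e1, Cyp2g1, Cyp2j8, Cyp2j9 and Cyp3a57, or 5 of 50 (10%) against 8.16% of all genes. Lower in all knockout libraries were Cyp2j13 and Cyp3a13, or 2 of 50 (4%) against 8.72% of all genes. Neither share stood far above that of all genes.

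Cyp2e1 (ENSMUSG00000025479, chromosome 7, 140763739 to 140774975, GRCm38) had 7370.1, 7011.6 and 7904.3 CPM in knockout and 5511.6 and 5994.8 CPM in control livers. The lowest knockout value lay above the highest control value, and by count the gene ranked 8 to 9 among all rows in the knockout libraries and 11 to 14 in the control libraries. The log2 fold change was 0.37 (SE 0.17, 95% interval -0.04 to 0.78), a ratio of 1.29, and with an unadjusted edgeR p of 0.0692 it did not pass. The highest and lowest knockout libraries differed by 1.13-fold and the controls by 1.09-fold. Over the 12 other fits the log2 fold change was 0.30 to 0.43. In whole liver, a change in the number of cells of a type and a change in RNA per cell cannot be told apart. This holds for Cyp2e1 and the genes that follow. The 250 bases before its RefSeq start (chr7:140763569-140763818, plus strand, GRCm38.p6, with that start 80 bases inside the row) are shown because this gene supplies the largest share of the P450 transcripts, with the TATA box letters TATAAA in capitals.
Cyp2e1: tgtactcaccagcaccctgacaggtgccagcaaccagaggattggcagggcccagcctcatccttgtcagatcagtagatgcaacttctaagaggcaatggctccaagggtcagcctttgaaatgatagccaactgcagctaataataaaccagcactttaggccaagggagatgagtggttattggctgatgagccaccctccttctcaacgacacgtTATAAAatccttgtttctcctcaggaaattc

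In family 1, Cyp1a1 and Cyp1a2 ranked the 5 libraries in the same order. Cyp1a2, which oxidises caffeine and is a classic AhR target, had 516.7, 449.9 and 757.6 CPM in knockout and 391.0 and 665.4 CPM in control livers. Cyp1a1, its inducible neighbour on chromosome 9, had 18.6 to 31 CPM in knockout and 16.1 to 26.8 CPM in control livers. Both were highest in knockout replicate 3 and lowest in control replicate 1, and control replicate 3 was 1.7 times control replicate 1 for Cyp1a2 and 1.67 times for Cyp1a1. The log2 fold changes were 0.12 (SE 0.30) for Cyp1a2 and 0.15 (SE 0.28) for Cyp1a1. Cyp1b1, which in liver is known from stellate and other non-parenchymal cells, had 16, 20 and 4 counts in knockout and 13 and 10 counts in control libraries. The 6 stellate markers summed to 255.0, 212.2 and 175.7 CPM in knockout and 235.3 and 250.2 CPM in control livers, also lowest in knockout replicate 3, and 0 of 6 had a log2 fold change above 0. Their part in the Cyp1b1 values was not tested.

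The Cyp2a genes encode hydroxylases of coumarin and steroids, and of the 4 Cyp2a4 and Cyp2a5 varied most within the knockout group. Cyp2a4, a steroid hydroxylase known to be higher in female mice, had 851.9, 169.7 and 428.9 CPM in knockout and 698.1 and 295.4 CPM in control livers. The knockout libraries spanned a 5.02-fold range that enclosed both controls. Cyp2a5, the coumarin hydroxylase, had 583.3, 232.7 and 592.4 CPM in knockout and 378.2 and 403.1 CPM in control livers, so knockout replicate 2 was lowest for both genes. The log2 fold changes were -0.04 (SE 0.65) for Cyp2a4 and 0.26 (SE 0.39) for Cyp2a5. Without knockout replicate 2, DESeq2 called Cyp2a5 higher (log2 fold change 0.59, adjusted p 0.0436), while edgeR called it in no fit. Cyp2a22 had 8.99, 8.93 and 7.22 CPM in knockout and 5.9 and 7.89 CPM in control livers, which gave a log2 fold change of 0.28 (SE 0.19), and Cyp2a12 was at 513.8 to 590.0 CPM in knockout and 483.9 to 605.5 CPM in control livers. Of the 50-base words of Cyp2a4 and Cyp2a5 transcripts, 38.8% and 37% occurred in another gene, mostly in each other, so reads on shared sequence leave their counts uncertain.

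The windows before the starts of Cyp2a4 (chr7:26306942-26307191) and Cyp2a5 (chr7:26835089-26835338) are from the plus strand of GRCm38.p6 in RefSeq. They are shown because these similar Cyp2a genes shared their lowest library. They were identical at 245 of 251 aligned positions (97.6%). Capitals mark TATAAA and also GTTAAT, letters found in sites of the hepatocyte factor HNF1.
Cyp2a4: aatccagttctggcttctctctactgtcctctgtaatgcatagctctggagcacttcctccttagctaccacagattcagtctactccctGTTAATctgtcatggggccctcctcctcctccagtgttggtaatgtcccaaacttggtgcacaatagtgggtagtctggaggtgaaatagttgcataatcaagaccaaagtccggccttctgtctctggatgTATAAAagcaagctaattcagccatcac
Cyp2a5: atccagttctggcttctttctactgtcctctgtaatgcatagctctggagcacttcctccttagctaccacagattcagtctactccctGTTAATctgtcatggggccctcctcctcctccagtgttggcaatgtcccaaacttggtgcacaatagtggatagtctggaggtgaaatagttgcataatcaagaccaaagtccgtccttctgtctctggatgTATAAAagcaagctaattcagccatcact

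The Cyp2b genes varied widely between libraries, and for Cyp2b10 and Cyp2b13 the lowest and highest values were those of the 2 controls. Cyp2b10, the best known CAR target of mouse liver (ENSMUSG00000030483, chromosome 7, 25897620 to 25926624), had 6.77, 8.75 and 5.44 CPM in knockout and 2.07 and 34.7 CPM in control livers. Control replicate 3 was 16.7 times control replicate 1, and all knockout libraries lay between them. The log2 fold change was -1.39 (SE 0.90, 95% interval -3.55 to 0.77), and its sign depended on the control library. Without control replicate 3 it was 1.75 by edgeR (adjusted p 0.466) and 1.76 by DESeq2 (adjusted p 0.0044). Without control replicate 1 it was -2.32 by edgeR (adjusted p 0.246) and -2.32 by DESeq2 (adjusted p 1.88e-08). With all 5 libraries DESeq2 gave an adjusted p of 1.

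Cyp2b9 and Cyp2b13, known as female-predominant, were low and are given in every library after their values were seen. Cyp2b9 had 0.228, 2.9 and 2.37 CPM in knockout and 0.251 and 5.08 CPM in control livers. Cyp2b13 had 2, 14 and 8 counts in knockout and 0 and 30 counts in control libraries, which puts control replicate 3 at least 10.8-fold higher than the 3 counts that a count of 0 allows in control replicate 1. Both genes, like Cyp2b10, were highest in control replicate 3 and next highest in knockout replicate 2. Their log2 fold changes were -0.53 (SE 1.16) for Cyp2b9 and -0.99 (SE 1.21) for Cyp2b13, and without control replicate 3 the fitted value for Cyp2b9 was 2.85. Of the 50-base words, 27.3% of Cyp2b13, 11.2% of Cyp2b9 and 8.7% of Cyp2b10 occurred in another gene.

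The windows before the starts of Cyp2b10 (chr7:25897408-25897657), Cyp2b9 (chr7:26173159-26173408) and Cyp2b13 (chr7:26061245-26061494), on the plus strand of GRCm38.p6 from RefSeq, are shown because the 3 genes shared their highest library. Cyp2b9 and Cyp2b13 were identical at 248 of 250 aligned positions (99.2%), and each matched Cyp2b10 at 182 of 260 aligned positions (70%). Capitals mark AGGTCA, a site core of many nuclear receptors, and also GCGTG, the core that AhR binds, on either strand.
Cyp2b10: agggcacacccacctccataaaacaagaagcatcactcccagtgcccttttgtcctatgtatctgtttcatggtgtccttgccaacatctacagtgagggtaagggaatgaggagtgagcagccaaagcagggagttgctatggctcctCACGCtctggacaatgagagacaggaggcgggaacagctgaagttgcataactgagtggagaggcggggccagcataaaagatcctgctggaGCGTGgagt
Cyp2b9: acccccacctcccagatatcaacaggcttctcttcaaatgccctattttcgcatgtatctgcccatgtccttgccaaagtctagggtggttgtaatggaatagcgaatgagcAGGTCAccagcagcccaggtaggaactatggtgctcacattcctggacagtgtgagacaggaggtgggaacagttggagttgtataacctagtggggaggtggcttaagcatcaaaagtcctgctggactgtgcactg
Cyp2b13: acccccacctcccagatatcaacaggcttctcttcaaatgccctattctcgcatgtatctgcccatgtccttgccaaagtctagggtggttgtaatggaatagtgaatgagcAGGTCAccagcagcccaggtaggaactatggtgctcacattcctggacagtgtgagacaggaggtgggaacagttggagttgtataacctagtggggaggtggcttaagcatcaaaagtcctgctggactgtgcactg

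The Cyp2c genes, which form epoxides of arachidonic acid and oxidise many drugs, did not share one order of libraries. Cyp2c29 had 1979.4, 1426.9 and 1350.0 CPM in knockout and 1275.4 and 2249.3 CPM in control livers. Also on chromosome 19, Cyp2c50 had 771.2, 556.8 and 738.5 CPM in knockout and 397.2 and 874.4 CPM in control livers. Cyp2c54 had 511.6, 345.7 and 519.0 CPM in knockout and 280.8 and 584.1 CPM in control livers. Cyp2c37 was at 292.6 to 411.8 CPM in knockout and 231.0 to 506.4 CPM in control livers. For these 4 genes all knockout libraries lay between the controls, which differed by 1.76-fold for Cyp2c29 and by 2.08-fold to 2.2-fold for the other 3. The log2 fold changes were -0.15 (SE 0.29) for Cyp2c29, 0.12 (SE 0.34) for Cyp2c50, 0.09 (SE 0.33) for Cyp2c54 and -0.02 (SE 0.33) for Cyp2c37.

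Other Cyp2c genes ran the opposite way between the controls. Cyp2c67 had 364.6, 519.1 and 494.0 CPM in knockout and 517.6 and 329.0 CPM in control livers, and Cyp2c68 was at 96.6 to 113.2 CPM in knockout and 86.1 to 154.9 CPM in control livers. Control replicate 3 was at 0.636 of control replicate 1 for Cyp2c67 and at 0.556 for Cyp2c68. These genes share 52.8% and 43.3% of their 50-base words with other genes, most with Cyp2c40, which was at 0.684 to 2.23 CPM in knockout and 1.02 to 1.35 CPM in control livers. Cyp2c70, a bile acid hydroxylase in mice that shares no such word, had 369.6, 439.5 and 643.4 CPM in knockout and 484.1 and 518.0 CPM in control livers, with a log2 fold change of -0.05 (SE 0.24). Cyp2c39, known to act on retinoic acid, had 6.38, 5.61 and 1.69 CPM in knockout and 2.1 and 2.57 CPM in control livers, with knockout replicate 3 below both controls and a log2 fold change of 0.96 (SE 0.54). Without knockout replicate 3, DESeq2 called Cyp2c39 higher (log2 fold change 1.36, adjusted p 0.0077). Its neighbour Cyp2c38, at 20.2 to 50.5 CPM in knockout and 24.8 to 32.7 CPM in control livers, was also lowest in knockout replicate 3. Cyp2c23 was at 303.0 to 429.2 CPM in knockout and 327.7 to 447.7 CPM in control livers, Cyp2c55 at 3.5 to 7.72 CPM in knockout and 6.88 to 7.76 CPM in control livers, and Cyp2c65 and Cyp2c69 were under 1 CPM in every library.

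The windows before the starts of Cyp2c37 (chr19:39992174-39992423) and Cyp2c50 (chr19:40089429-40089678), on the plus strand of GRCm38.p6 from RefSeq, are shown because both genes had all knockout libraries between the same 2 controls. They were identical at 215 of 255 aligned positions (84.3%) and held none of the 5 patterns searched, so no base is in capitals. Of the 50-base words of Cyp2c37 transcripts, 21.1% also occurred in Cyp2c50.
Cyp2c37: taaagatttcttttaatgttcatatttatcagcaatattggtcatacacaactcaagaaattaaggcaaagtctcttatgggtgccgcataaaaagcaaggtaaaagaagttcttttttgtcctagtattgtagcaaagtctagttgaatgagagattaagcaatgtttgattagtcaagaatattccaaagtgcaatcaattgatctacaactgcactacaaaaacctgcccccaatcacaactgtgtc
Cyp2c50: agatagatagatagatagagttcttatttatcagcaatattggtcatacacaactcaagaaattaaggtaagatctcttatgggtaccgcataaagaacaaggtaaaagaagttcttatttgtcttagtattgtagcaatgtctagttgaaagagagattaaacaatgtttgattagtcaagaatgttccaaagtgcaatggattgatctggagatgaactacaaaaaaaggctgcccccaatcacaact

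All 8 Cyp2d genes on chromosome 15 were lowest in control replicate 1, as were 21.2% of all genes. Cyp2d9, a steroid hydroxylase known to be male-predominant, had 1247.2, 1234.4 and 1760.0 CPM in knockout and 803.5 and 1906.0 CPM in control livers. Control replicate 3 was 2.37 times control replicate 1, with the knockout libraries between them. Cyp2d40, at 70.1 to 86.2 CPM in knockout and 44.7 to 101.8 CPM in control livers, and Cyp2d34, at 19.6 to 26.8 CPM in knockout and 14.5 to 29.4 CPM in control livers, had the same arrangement. Cyp2d26 had 710.8, 702.3 and 769.7 CPM in knockout and 616.1 and 743.9 CPM in control livers, and Cyp2d10 had 382.3, 360.5 and 459.6 CPM in knockout and 341.8 and 438.0 CPM in control livers. For Cyp2d26, Cyp2d10, Cyp2d22 and Cyp2d11 control replicate 3 was only 1.15 to 1.33 times control replicate 1. The log2 fold changes of the 8 genes ran from 0.01 to 0.10. They were -0.44 to -0.03, all below 0, without control replicate 1 and 0.18 to 0.82, all above 0, without control replicate 3.

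The Cyp2j genes on chromosome 4, epoxygenases of arachidonic acid, held the member with the smallest p. Cyp2j9 (ENSMUSG00000015224) had 21.7, 22.1 and 24.8 CPM in knockout and 16.5 and 18.1 CPM in control livers, without overlap. Its log2 fold change was 0.41 (SE 0.12, 95% interval 0.12 to 0.69), with an unadjusted edgeR p of 0.0119 and an adjusted p of 1. Over the 12 other fits the value was 0.33 to 0.48 and the adjusted p 0.367 to 1. Cyp2j9 shares no 50-base word with another gene. Its more abundant neighbour Cyp2j5, the main Cyp2j of mouse liver, had 628.9, 754.8 and 534.0 CPM in knockout and 610.0 and 651.0 CPM in control livers, with a log2 fold change of 0.02 (SE 0.18). Cyp2j8 had 29, 43 and 31 counts in knockout and 27 and 20 counts in control libraries (log2 fold change 0.49, SE 0.30). Cyp2j13 had 9, 10 and 10 counts in knockout and 13 and 15 counts in control libraries (log2 fold change -0.59, SE 0.34). Neither overlapped between the groups, and both rested on few counts. Cyp2j6 was at 67.1 to 83.4 CPM in knockout and 75.9 to 104.0 CPM in control livers, and Cyp2j7 at 0.211 to 0.562 CPM in knockout and 0.44 to 0.502 CPM in control livers.

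In the Cyp3a subfamily on chromosome 5, which oxidises steroids, bile acids and many drugs, 6 of 7 genes were highest in knockout replicate 1, as were 15.1% of all genes. Cyp3a25 had 691.0, 449.5 and 484.0 CPM in knockout and 504.7 and 427.7 CPM in control livers, with a log2 fold change of 0.22 (SE 0.22). Cyp3a11, the main PXR-induced member, was at 420.0 to 694.4 CPM in knockout and 384.0 to 576.2 CPM in control livers, with 0.17 (SE 0.27), and Cyp3a59 at 166.4 to 262.2 CPM in knockout and 162.6 to 180.2 CPM in control livers, with 0.23 (SE 0.22). Cyp3a57 had 6.84, 4.34 and 3.62 CPM in knockout and 3.23 and 3.49 CPM in control livers and did not overlap between the groups, with knockout replicate 3 close to the controls (log2 fold change 0.55, SE 0.30). Cyp3a13, which lies apart from the main cluster and shares no 50-base word, was the exception. It had 165.0, 134.9 and 159.9 CPM in knockout and 166.8 and 193.9 CPM in control livers, which gave -0.23 (SE 0.15) on the log2 scale with an unadjusted edgeR p of 0.156. Cyp3a16, female-predominant in adult mice, was at 38.8 to 64.3 CPM in knockout and 35.8 to 51.5 CPM in control livers, and Cyp3a44, also female-predominant, at 42.3 to 71.4 CPM in knockout and 37.1 to 56.2 CPM in control livers.

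The remaining subfamilies each had a single member. Cyp2f2, a periportal enzyme that activates naphthalene, had 815.2, 834.1 and 1071.0 CPM in knockout and 884.1 and 1039.9 CPM in control livers, with a log2 fold change of -0.09 (SE 0.18). Of its exon length, 13.5% overlaps a gene on the opposite strand (Gm15883), and whether counting used strand is not given. Cyp2r1, a vitamin D hydroxylase, had 17.6, 15.1 and 16.7 CPM in knockout and 15.9 and 17 CPM in control livers, with a log2 fold change of 0.00 (SE 0.12) and an interval of -0.29 to 0.29. Cyp2u1, a fatty acid hydroxylase, had 21.4, 33.3 and 30.2 CPM in knockout and 33.3 and 30.6 CPM in control livers, with a log2 fold change of -0.18 (SE 0.19), and 10.5% of its exons likewise overlap another row on the opposite strand. Cyp2g1, known from olfactory tissue, had 31, 29 and 57 counts in knockout and 20 and 23 counts in control libraries and did not overlap between the groups (log2 fold change 0.79, SE 0.40). Cyp2s1, mainly an enzyme of epithelia outside the liver, had 7, 13 and 11 counts in knockout and 11 and 11 counts in control libraries. Cyp2t4 had 7, 5 and 9 counts in knockout and 2 and 6 counts in control libraries and was not tested.

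The 2 control libraries differed for many members. Control replicate 3 was at least 1.5 times control replicate 1 for 14 of 50 members (28%) against 7.72% of all genes, and the reverse held for 4 members (8%) against 9.23% of all genes. The 14 were Cyp1a1, Cyp1a2, Cyp2b9, Cyp2b10, Cyp2c29, Cyp2c37, Cyp2c50, Cyp2c54, Cyp2d9, Cyp2d12, Cyp2d34, Cyp2d40, Cyp3a11 and Cyp3a44, and the 4 were Cyp2a4, Cyp2c67, Cyp2c68 and Cyp2c69. Cyp2b13, at 0 in control replicate 1, was not counted. Control replicate 1 was lowest for 25 members (50%) against 21.2% of all genes, and control replicate 3 highest for 16 (32%) against 18.3%. All knockout libraries lay between the controls for 12 members (24%) and for 11.6% of all genes. The median size of the log2 difference between the controls was 0.40 over the members and 0.23 over all genes. It was 0.71 over the 27 tested genes of the other P450 families, of which 8 were at least 1.5 times higher in control replicate 3 and 7 in control replicate 1. It was 0.56 over the 20 CAR and PXR targets outside the P450s. The median size of the log2 fold change between the groups was 0.16 over the members and 0.13 over all genes. A difference between groups of libraries varies less than one between single libraries, so these sizes cannot be compared directly with those between the controls. The differences between the controls describe 2 libraries, and members of a cluster that share reads are not independent.

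**Figure D4:**
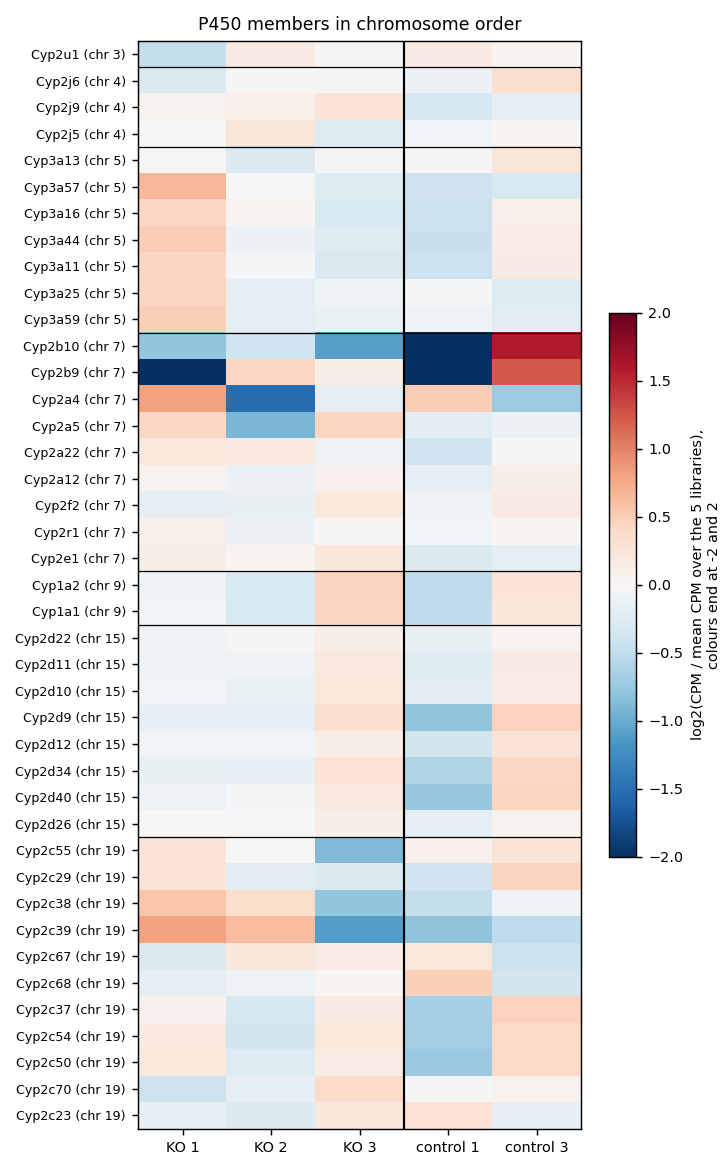
log2 of CPM over the mean of the 5 libraries for the 41 members with a mean of at least 1 CPM per kb, in chromosome order, with knockout libraries left and control libraries right of the black line. Control replicate 1 is blue across the Cyp2d genes and for Cyp2c37, Cyp2c54 and Cyp2c50, where control replicate 3 is mostly red, and 6 Cyp3a genes are red in knockout replicate 1.

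Members were also grouped by the liver zone in which they are known to be expressed. The 7 pericentral members (Cyp2e1, Cyp1a2, Cyp2c29, Cyp2c37, Cyp2c50, Cyp2c54 and Cyp2a5) had log2 fold changes with 5 of 7 above 0, with a median of 0.12, and 0 called. Control replicate 1 was lowest for 6 of these 7, against 21.2% of all genes. Pericentral genes outside the P450s had 14 of 18 above 0, with a median of 0.17, and 0 called, where 52.1% of all genes lay above 0. Control replicate 1 was lowest for 8 of these 18 genes. Among them was Glul, the glutamine synthetase of hepatocytes next to the central vein. It had 839.1, 885.3 and 810.0 CPM in knockout and 507.7 and 710.7 CPM in control livers, without overlap. Higher without overlap were 4 of these 18 genes (22.2%) and 1 of the 7 pericentral members (Cyp2e1, 14.3%), against 8.16% of all genes. For Lect2 the log2 fold change was 0.46 (SE 0.17) and for Aldh3a2 it was 0.82 (SE 0.33), neither past edgeR's test. Periportal genes outside the P450s had 2 of 10 above 0, with a median of -0.27, and 0 called by edgeR, while DESeq2 called Hal lower (adjusted p 0.0218). Control replicate 1 was highest for 8 of these 10 periportal genes, against 21.4% of all genes. Hal, which breaks down histidine, had 367.7, 370.5 and 424.5 CPM in knockout and 763.7 and 572.2 CPM in control livers. The log2 fold changes were -0.52 (SE 0.28) for Sds and -0.58 (SE 0.35) for Cdh1. The part of zonation in the Cyp2e1 values was not tested.

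By inducing receptor, the 8 members known to respond to CAR or PXR (Cyp2b10, Cyp2c29, Cyp2c37, Cyp2c50, Cyp2c55, Cyp2a5, Cyp3a11 and Cyp3a13) had 3 of 8 above 0, with a median of -0.08, and 0 called. For 5 of them control replicate 3 was at least 1.5 times control replicate 1. Genes outside the P450s with this induction had 16 of 20 above 0, with a median of 0.26, and 0 called, where 52.1% of all genes lay above 0. Control replicate 1 was lowest for 10 of these 20 genes, against 21.2% of all genes. Among these, Alas1, the first enzyme of haem synthesis, had 712.7, 234.9 and 1217.6 CPM in knockout and 170.6 and 270.3 CPM in control livers, with knockout replicate 2 inside the control range (log2 fold change 1.71, SE 0.64). For Gstt1 the log2 fold change was 0.32 (SE 0.13) and for Ugt2b35 it was 0.39 (SE 0.21). The 3 AhR-induced members (Cyp1a1, Cyp1a2 and Cyp1b1) had log2 fold changes of 0.12 to 0.15. AhR targets outside the P450s had 2 of 4 above 0, with a median of 0.00, and 0 called, with 0.47 (SE 0.24) for Tiparp, -0.76 (SE 0.41) for Gsta1 and -0.09 (SE 0.16) for Ugt1a6a.

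By sex bias, the list of 7 female-predominant P450 genes includes Cyp3a41a and Cyp3a41b, whose symbols the membership rule does not take. It had 4 of 7 above 0, with a median of 0.20, and 0 called, a range of -0.99 to 0.45, and 5 of 7 genes highest in knockout replicate 1. Cyp3a41b was at 79.1 to 126.4 CPM in knockout and 69 to 102.2 CPM in control livers, and 93.5% of its 50-base words occur in Cyp3a41a. The only listed male-predominant member, Cyp2d9, had a log2 fold change of 0.06 (SE 0.37). Male-biased genes outside the P450s had 2 of 10 above 0, with a median of -0.19, and 0 called. Of these 10, 6 were lowest in knockout replicate 1, against 16.4% of all genes. Among them the log2 fold change was -0.25 (SE 0.22) for C6, -0.62 (SE 0.59) for Selenbp2 and -0.18 (SE 0.21) for Nudt7. Female-biased genes outside the P450s had 5 of 6 above 0, with a median of 0.80, and 0 called, and 4 of the 6 were highest in knockout replicate 1, against 15.1% of all genes. Of these, Acot3 had 31.4, 3.86 and 8.97 CPM in knockout and 2.01 and 1.49 CPM in control livers, which gave 3.07 (SE 0.92) on the log2 scale. The log2 fold change was 1.17 (SE 0.64) for Slc22a26, and Hao2 had 33, 19 and 7 counts in knockout and 5 and 0 counts in control libraries.

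Regulators of the P450 genes did not pass the test either. The 27 tested regulators had 18 of 27 above 0, with a median of 0.07, and 0 called. Those with the smallest p-values were Bcl6, a repressor that opposes STAT5 targets, with 52.1, 17 and 21.9 CPM in knockout and 16.5 and 13.6 CPM in control livers, Nfe2l2 (log2 fold change 0.27, SE 0.13) and the bile acid receptor Nr1h4 (0.43, SE 0.21). The receptors that follow were chosen after their values were seen. CAR (Nr1i3) had 97.7, 54.3 and 96 CPM in knockout and 29.2 and 73 CPM in control livers, with a log2 fold change of 0.69 (SE 0.42). PXR (Nr1i2) was at 65.5 to 92.8 CPM in knockout and 70.4 to 73.7 CPM in control livers, and Ahr at 32.8 to 45.1 CPM in knockout and 22.1 to 45.2 CPM in control livers. Nr1i3 and Ahr were lowest in control replicate 1, as were Cyp2b10, Cyp1a1 and Cyp1a2. That library was lowest for 6 of the 27 regulators and 25 of 50 members, against 21.2% of all genes. The highest libraries differed. Nr1i3 was highest in knockout replicate 1 and Cyp2b10 in control replicate 3. Ahr was highest in control replicate 3, and Cyp1a1 and Cyp1a2 in knockout replicate 3. A link between these genes was not tested.

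Among the partners of the enzymes, the 7 genes of electron transfer and close partners had 6 of 7 above 0, with a median of 0.18, and 0 called. The reductase Por had 435.8, 127.4 and 561.3 CPM in knockout and 315.2 and 251.4 CPM in control livers, a 4.41-fold range within the knockout group. Its lowest library, knockout replicate 2, was also lowest for Cyp2a4 and Cyp2a5, which share sequence. That library was lowest for 6 of 50 members and for 3318 of 16441 genes, and a link to Por was not tested. The smallest p-values belonged to Cyb5r3 (log2 fold change 0.25, SE 0.16), Pgrmc2 (0.29, SE 0.22) and Cyb5b (0.18, SE 0.19). Genes of haem synthesis and breakdown had 7 of 12 above 0, with a median of 0.10, and 0 called. The haem oxygenase Hmox1 had 13.1, 12.8 and 9.56 CPM in knockout and 17 and 16.1 CPM in control livers, and the biliverdin reductase Blvrb had 85.6, 77.1 and 91.2 CPM in knockout and 60.3 and 72.1 CPM in control livers. Neither overlapped between the groups, with unadjusted edgeR p-values of 0.0238 for Hmox1 and 0.0388 for Blvrb. Alas1, described above, lay between them at 0.0344. Of the 12 haem genes, 3 (25%) were higher without overlap against 8.16% of all genes, and 1 (8.33%) was lower against 8.72%.

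**Figure D5:**
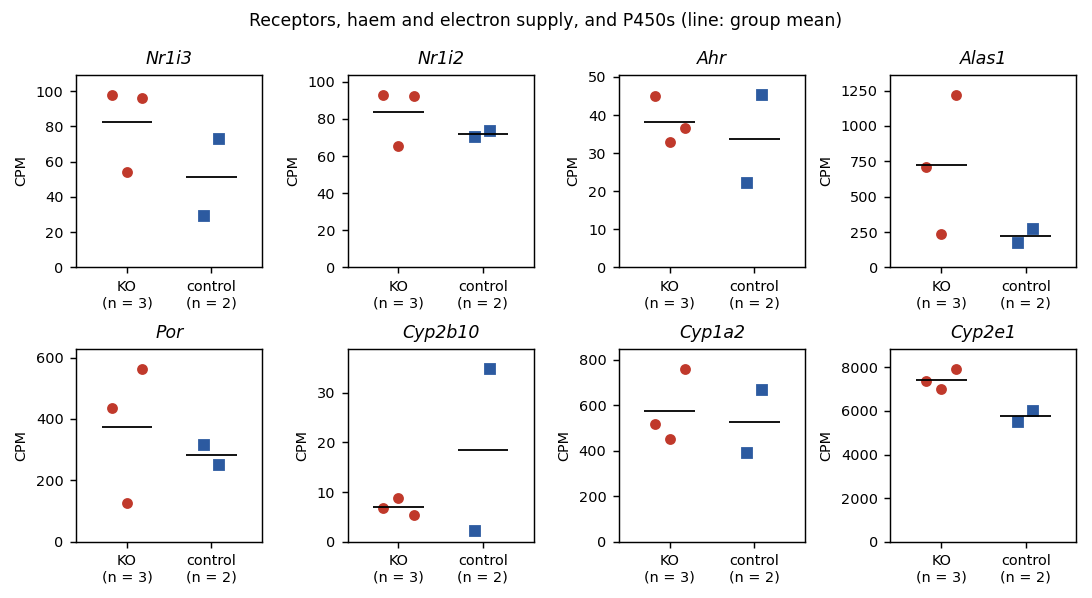
CPM of 3 receptors (Nr1i3, Nr1i2, Ahr), Alas1, Por and 3 P450 genes in each library, with 3 knockout libraries left, 2 distinct control libraries right and the group mean as a line. In this set Cyp2e1 alone has all knockout values above the control values, and Cyp2b10 has its lowest and highest values in the 2 controls.

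The 27 tested genes of the other P450 families had 11 of 27 above 0, with a median of -0.01, and 0 called, and ran from -1.57 to 2.54, against -1.39 to 0.96 in families 1 to 3. That difference was not tested. The smallest p-values among them belonged to Cyp46a1, the cholesterol 24-hydroxylase best known from brain, to the fatty acid hydroxylase Cyp4a12a and to the sterol 27-hydroxylase Cyp27a1. Cyp46a1 had 10.4, 18.3 and 6.31 CPM in knockout and 2.51 and 5.12 CPM in control livers, with a log2 fold change of 1.62 (SE 0.51) and an unadjusted edgeR p of 0.0167. Cyp4a12a had 315.0, 463.4 and 282.9 CPM in knockout and 148.7 and 271.9 CPM in control livers, which gave 0.75 (SE 0.32) on the log2 scale. Cyp27a1 was at 434.5 to 504.4 CPM in knockout and 338.2 to 414.6 CPM in control livers, with 0.33 (SE 0.16) on that scale. None of these 3 genes, named for their small p-values, overlapped between the groups, and each had an adjusted edgeR p of 1. Of the 27 genes, 3 (11.1%) were higher without overlap against 8.16% of all genes. The reverse held for 2 (7.41%) against 8.72% of all genes. Pseudogenes of families 1 to 3 also held reads, with Cyp2d37-ps at 52.9 to 65.7 CPM in knockout and 43.3 to 61.7 CPM in control livers and Cyp2c53-ps at 33.7 to 56.8 CPM in knockout and 31.9 to 59.6 CPM in control livers.

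How well counts of single members can be told apart varied. Of the 55 members, 7 share no 50-base word with another gene, 24 share at least 10% of their words and 3 at least 50% (Cyp2c40, Cyp2c67 and Cyp2c69), with a median of 8.63%. Read length is not given in the sources used here, and 50 bases was a choice made for this comparison. Exons of 11 members overlap those of another row. Windows of 250 bases before the start were found for 47 members in the RefSeq table. The letters TATAAA occurred, on either strand, in 22 of the 47 (46.8%) and in 12.4% of all 32851 windows of that length. The letters AGGTCA occurred in 14 (29.8%) against 14%. The letters GTTAAT were in 6 (12.8%) against 6.43%, and GCGTG was in 6 (12.8%) against 28.2%. TTCNNNGAA, which STAT factors bind, was in 1 (2.13%) against 7.02%. No matches of different patterns overlapped in the member windows. A match describes letters only, and members with near-identical windows count separately.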

How the data were processed

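Per the labels' protocols, total RNA from livers of mice was sequenced on an Illumina instrument after TruSeq library preparation. The authors deposited 1 table of raw read counts per gene with the summed exon length of each gene. Tools named by the submitters' processing notes are FastQC, Trimmomatic 0.33, and Subread and featureCounts, both 1.4.6-p4, with builds mm10 and GRCm38. Strand setting, handling of reads with several matches and annotation release were not stated there. GENCODE vM21 supplied symbols for 46488 of 46983 identifiers.

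On the 5 distinct libraries, edgeR's filterByExpr kept 16441 genes. The main test was edgeR's quasi-likelihood test (two-sided, TMM scaling) with Benjamini-Hochberg adjustment over all kept genes at 0.05. SE and 95% intervals come from its F statistic. The labels call the samples biological replicates. The floor of 3 counts covers counting error only. Software was R 4.3.3 with edgeR 4.0.16, DESeq2 1.42.0 and limma 3.58.1, and Python 3.11.15.

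Members and gene lists were chosen with earlier results of these data known. Values in every library are given for Mtdh, the 15 members with the highest length-scaled level, the 10 with the smallest p and the top member of each subfamily, and each list names the 3 genes with the smallest p. Other genes were named after their values were seen, mostly with a range. Shared words were sought in GENCODE vM21 transcripts. The other fits used another scaling, no low-count filter, DESeq2, limma-voom, all 6 columns, each library left out and a replicate block. DESeq2 without each library was added after seeing the data.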

Additional observations from a re-analysis of the deposited data

How the results depend on the processing

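In every edgeR and limma-voom fit, and in DESeq2 on the 5 libraries, 0 P450 members of families 1 to 3 were called higher and 0 lower. With single libraries left out, DESeq2 called 0 to 1 member higher and 0 to 1 lower. These were Cyp2a5 without knockout replicate 2, Cyp2c39 without knockout replicate 3, and Cyp2b10, which was higher (1.76) without control replicate 3 and lower without control replicate 1. Of the 50 tested members, 14 kept the sign of their log2 fold change in all 12 other fits, 10 above 0 and 4 below.

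Over all genes, edgeR's 0 higher and 1 lower became 3 lower without a low-count filter and 1 to 5 lower with single libraries left out, where 0 were higher. DESeq2 gave 6 higher and 13 lower. Leaving out single libraries, it gave 2 higher and 4 lower without knockout replicate 1, 36 and 13 without knockout replicate 2, 47 and 26 without knockout replicate 3, 16 and 11 without control replicate 1, and 92 and 47 without control replicate 3. Among the 138 regulators, partners and related genes, edgeR called 0, while DESeq2 called 1 lower (Hal) and, with single libraries left out, 0 to 5 higher and 0 to 3 lower. The cause of these shifts was not tested.

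With the replicate numbers as a block, 0 genes were lower, so the call of Mtdh was lost, and 0 members were called. In that fit replicate 2 held only a knockout library, so knockout replicate 2 did not enter the group difference. Whether the block or the smaller number of libraries lost the call was not tested. Nothing in the labels ties the numbers across groups, so same-numbered libraries were not taken as pairs. Such libraries deviated from their group means with correlations across genes of 0.06 and 0.15, over 2 pairs. For knockout replicate 2 with control replicate 1 the value was 0.11. With 2 controls, the deviations of one mirror those of the other, so these correlations cannot decide on pairing. The 2 distinct controls limit precision for every gene. The median interval was 0.69 on either side of a member's log2 fold change, against 0.46 over all genes in the same libraries.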
